A study of Mus musculus with 24 samples.

Results

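The lungs described here came from mouse pups on postnatal day 2 (P2) in which *Vangl2* had been removed from the distal lung epithelium, set against their own controls of the same day. The gene expression table for this comparison held 6 of the 24 lungs in the series, with 3 mutants (genotype Sox9Cre/+; Vangl2f/f) and 3 controls labelled WT. The titles of these controls read P2 Control(Vangl1/2), which names *Vangl1* as well. Of its 23420 gene entries, 17448 reached a normalized count of 1 in 3 or more of the 6 lungs, and all of these were tested. Cre was driven from the *Sox9* locus, so recombination in the lung was directed to the distal epithelial progenitors that express SOX9, and *Vangl2* in the mesenchyme was left in place. The paper also reports Sox9-Cre activity in other organs, among them brain, bone and small intestine. Only the mutants are labelled with the Sox9Cre allele, so its presence and the loss of *Vangl2* cannot be told apart here. Both other comparisons drawn on here used 6 lungs each with controls of their own labelled WT: lungs of postnatal day 5 (P5) titled Sox9Cre; Vangl2f/f, and P2 lungs titled Sox9Cre; Ror2f/f. The genotype entries of those 2 mutant groups name the other gene, and the titles were followed. RNA was taken from a whole left lobe, which mixes epithelium with all other lung cells. The labels gave no sex and no litter, so the p-values measure the spread between these lungs only.

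Vangl2 is a membrane protein of the planar cell polarity pathway, in which Wnt5a acts through receptors such as Ror2 to orient cells within a sheet and to organise their actin cytoskeleton. After birth the mouse lung forms alveoli, when secondary septa grow from the walls of the primitive air sacs. Epithelial alveolar type I and type II cells, PDGF-responsive myofibroblasts that lay down elastin, and the capillary bed all take part, and cell division is frequent in this period.

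The targeted gene came first. *Vangl2* had 249, 302 and 281 normalized counts in controls 1 to 3 and 241, 224 and 173 in mutants 1 to 3, a log2 difference of -0.39 (standard error 0.18, limma adjusted p = 0.241). The groups did not overlap, though mutant 1 lay close to control 1, and the difference did not pass the test in the whole lobe, where *Vangl2* RNA of the mesenchyme was also counted. Its paralog *Vangl1* had 992, 946 and 426 in controls and 571, 539 and 389 in mutants, with control 3 below 2 of the mutants. *Ror2*, the Wnt5a receptor, differed by -0.011 (standard error 0.12) on the log2 scale, and *Wnt5a* by -0.39 (standard error 0.21). In bulk tissue of this kind fewer cells of a type and less RNA per cell cannot be told apart.

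The 6 libraries held between 19186821 and 20850989 reads, recovered as whole numbers from the normalized counts. Defining markers of distal lung were high in every lung: the summed type II cell markers *Sftpc*, *Sftpb*, *Abca3* and *Lamp3* had 330943, 299772 and 284227 normalized counts in controls and 255468, 317698 and 398248 in mutants, and the type I markers *Ager*, *Hopx*, *Aqp5* and *Pdpn* had 44129, 36545 and 38282 normalized counts in controls and 66678, 47967 and 52178 in mutants. The lungs also differed within the groups. The X-inactivation transcript *Xist* was high in control 1, mutant 2 and mutant 3 and near background in control 2, control 3 and mutant 1, so each group held lungs of both kinds, in unequal numbers. The first principal component, which took 42.4% of the variance, separated the groups. On it the controls lay together at 33.4 to 38.6, with mutant 3 at -7.87, mutant 2 at -27.2 and mutant 1 at -74.4. On the second, which took 20.6%, mutant 3 lay at -62.1, mutants 1 and 2 at 24.5 and 0.60, and the controls at 4.16 to 18.4.

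Loss of *Vangl2* was accompanied by 626 gene changes at an adjusted p under 0.05, which is 3.59% of the genes tested. Of these, 262 genes were higher in the mutants (1.50% of the genes tested) and 364 were lower (2.09%), while the median log2 difference over all genes was 0.0012. Each of the 626 genes separated the mutant lungs from the control lungs without overlap. Separation alone was common in this table, since mutants lay above controls without overlap for 14.6% of genes and below them for 14.9%. Those shares are the background for the list counts of separated genes given below. An unadjusted p under 0.05 (limma) was common too, at 3921 of the 17448 genes. That is the background for the unadjusted list counts of this comparison given below. With 3 lungs against 3, an exact two-sided permutation test cannot give a p below 0.1, and the calls therefore rest on the limma fit, which shares information on the spread across genes. The median of the called genes was a log2 difference of 0.96 among those that rose and -1.33 among those that fell, and 125 and 236 of them passed 1 on the log2 scale. The gene lists used below held 72 of the 262 and 148 of the 364.

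The number of calls depended on which lungs were in the fit. Left out singly, control 1 reduced the calls to 115, control 2 or control 3 to *Pigr* alone, and mutant 2 to 29, whereas 514 were called without mutant 1 and 2308 without mutant 3. Of those 514 genes 442 were among the 626, and of the 29 genes 20 were. With *Xist* level as a covariate 12 genes were called, 11 of them among the 626. The mutants were also unequal in size of response. Among the 364 genes that fell, the lowest lung was mutant 1 for 305 and mutant 3 for 20, and among the 262 that rose the highest lung was mutant 1 for 179, mutant 3 for 66 and mutant 2 for 17.

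**Figure D1:**
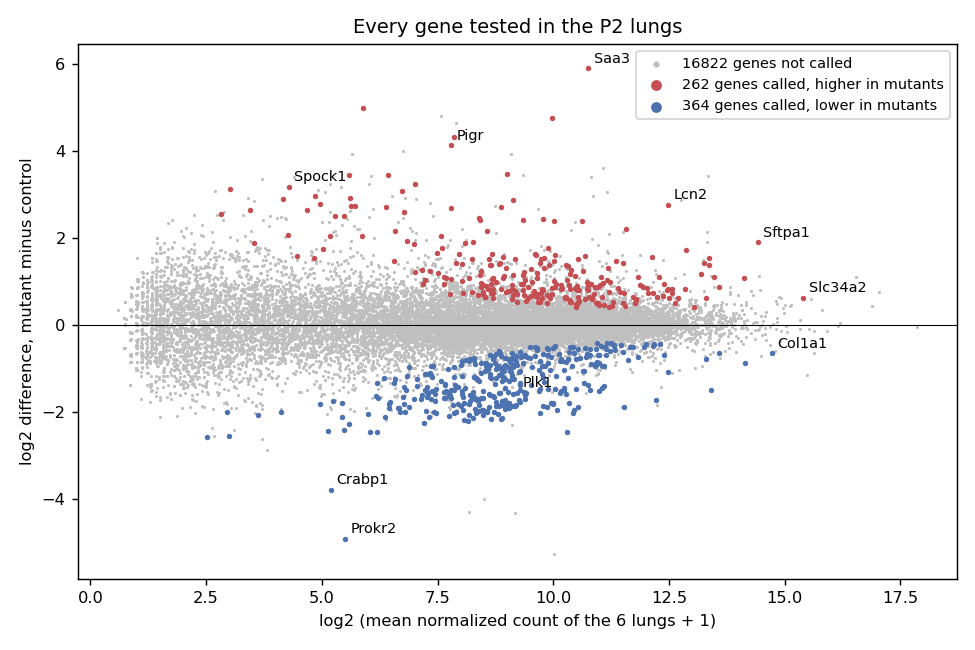
Each point is one of the 17448 genes tested, with log2 of the mean normalized count of the 6 lungs plus 1 on the x axis and the log2 difference of mutants from controls on the y axis, in red for the 262 genes called higher, blue for the 364 called lower and grey for the rest. Calls were spread over the range of expression levels, and they reached from -4.90 for *Prokr2* to 5.89 for *Saa3*.

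The largest rise was that of *Saa3*, serum amyloid A3, an acute phase protein that epithelium and macrophages make in inflammation. *Saa3* had 51.6, 59.7 and 29.7 normalized counts in controls 1 to 3 and 5774, 1033 and 3429.7 in mutants 1 to 3, a log2 difference of 5.89 (standard error 0.58, limma adjusted p = 0.0248). Mutant 1 was highest and mutant 2 lowest of the mutants, and all 3 lay far above the highest control. *Irg1*, which encodes the enzyme that makes itaconate in activated macrophages, had 2.11, 0 and 3.83 in controls and 66.2, 27.5 and 248 in mutants, a log2 difference of 4.98 (standard error 0.87, limma adjusted p = 0.0326). Here mutant 3 was the highest lung. *Serpina3n*, a serine protease inhibitor induced in acute phase responses, had 28.4, 49.3 and 33.5 in controls and 5004, 348 and 556 in mutants, a log2 difference of 4.74 (standard error 0.87, limma adjusted p = 0.0337), and mutant 1 was far above the other mutants. The plasma glycoprotein gene *Orm1* had 14.7, 15.2 and 14.4 in controls and 971, 124 and 252 in mutants, again highest in mutant 1. Also among the 15 largest rises were *Il1r2*, the decoy receptor for interleukin 1 (3.24), *Tnfrsf9*, a costimulatory receptor of the tumour necrosis factor family (3.44), *Ccl3*, a chemokine (3.08), *Mpo*, the peroxidase of neutrophil granules (2.97), *Serpina3g* (2.88) and *Kng2*, a kininogen (2.92). *Spock1*, a secreted proteoglycan, had 2.11, 3.79 and 2.87 in controls and 35.1, 38.4 and 28.5 in mutants, a log2 difference of 3.17 (standard error 0.36, limma adjusted p = 0.0248), with the mutants close to one another. *Lhfpl3* rose by 3.44, from a highest control of 7.37 to mutants at 196, 44.3 and 25.5.

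The largest fall was that of *Prokr2*, a G protein-coupled receptor for prokineticins. *Prokr2* had 67.4, 97.7 and 93.9 normalized counts in controls 1 to 3 and 0, 2.95 and 5.09 in mutants 1 to 3, a log2 difference of -4.90 (standard error 0.65, limma adjusted p = 0.0265). It had no reads in mutant 1, and the lowest control was above the highest mutant by a wide margin. *Crabp1*, a cytoplasmic retinoic acid binding protein, had 86.4, 71.1 and 43.1 in controls and 2.07, 3.93 and 6.11 in mutants, a log2 difference of -3.78 (standard error 0.44, limma adjusted p = 0.0248). *Hpca*, a neuronal calcium sensor, had 62.1, 61.6 and 49.8 in controls and 8.27, 8.85 and 13.2 in mutants. *Mb*, which encodes myoglobin, fell by 2.45 on the log2 scale, with control 1 at 196 above controls 2 and 3 at 68.3 and 70.9. *Bcat1*, a branched-chain amino acid aminotransferase, fell by 2.27. Most of the other large falls were of genes known for roles in the cell cycle: *2810417H13Rik*, a PCNA-associated factor, *Rmi2*, a subunit of the BLM helicase complex, *Lrr1*, *Ska1*, *Depdc1a*, *Shcbp1*, *Fam64a*, *Clspn* and *Ttk* had log2 differences of -2.47 to -2.13, and the schlafen family gene *Slfn9* had -2.16.

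**Figure D2:**
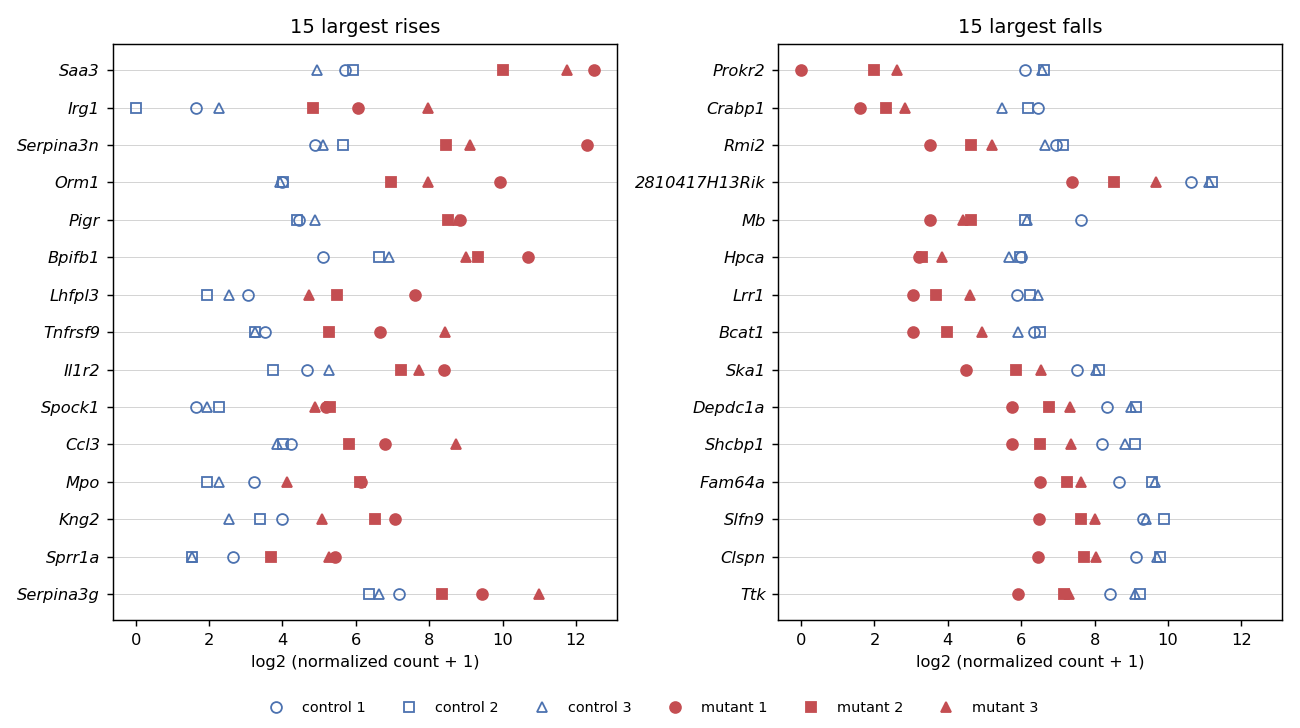
Log2(normalized count + 1) on the x axis in each of the 6 lungs, for the 15 genes with the largest rises (left) and the 15 with the largest falls (right), 1 gene per row, with open blue symbols for controls, filled red symbols for mutants and a symbol shape for each replicate number. Every mutant lies above every control on the left and below on the right, and for *Serpina3n* mutant 1, at 5004 normalized counts, stands apart from mutants 2 and 3 at 348 and 556.

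Genes of mitosis and DNA replication made up 128 of the 364 genes that fell. Of the 90 mitosis genes tested (spindle, kinetochore, condensin, cyclins and their regulators), 79 fell and none rose, with a median log2 difference of -1.68, and 87 were below the controls in every mutant lung, where 2.09% of all genes tested fell and 14.9% were below the controls in every mutant lung. Of the 70 genes of DNA replication and its repair, 49 fell and none rose, with a median of -1.20, and 69 were below in every mutant. *Plk1*, the polo-like kinase that drives entry into mitosis, had 734, 1096 and 838 normalized counts in controls and 277, 312 and 306 in mutants, a log2 difference of -1.56 (standard error 0.16, limma adjusted p = 0.0248). The mutants were nearly level for this gene. *Cdca2*, a chromatin-bound phosphatase subunit of mitosis, had 389, 631 and 523 in controls and 106, 129.8 and 134 in mutants, a log2 difference of -2.03 (standard error 0.21, limma adjusted p = 0.0248). *Ncapd2*, a condensin subunit, had 1591, 2437 and 2273 in controls and 606, 818 and 849.5 in mutants, a log2 difference of -1.46 (standard error 0.19, limma adjusted p = 0.0265). The kinesins *Kif18b*, *Kif20a* and *Kif2c*, motor proteins of the spindle, fell by 1.99, 1.60 and 1.71, and the spindle-associated genes *Ckap2* and *Ckap2l* by 1.85 and 1.47.

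Among the replication genes the members with the lowest p were spread over the replication machinery. *Rpa1*, the large subunit of the single-strand DNA binding complex, had 2531, 2590.1 and 2464 in controls and 1306, 1287 and 1420.0 in mutants, a log2 difference of -0.92 (standard error 0.087, limma adjusted p = 0.0248), and the lungs of each group lay close together. *Mcm7*, a subunit of the replicative helicase, had 1484, 1686 and 1643 in controls and 651, 839.9 and 862 in mutants, a log2 difference of -1.04 (standard error 0.13, limma adjusted p = 0.0258). *Pole*, the leading-strand polymerase, had 694, 932 and 854 in controls and 155, 249 and 299 in mutants, a log2 difference of -1.86 (standard error 0.24, limma adjusted p = 0.0265). *Dnmt1*, the maintenance DNA methyltransferase, *Rrm1*, a subunit of ribonucleotide reductase, *Chaf1a*, a histone chaperone subunit, and the recombination genes *Brca2* and *Rad51ap1* fell by 0.93, 0.95, 1.24, 1.12 and 1.54. The cell cycle inhibitor *Cdkn1c* rose, with 2847, 2818 and 2826 in controls and 4969.5, 3969 and 3731 in mutants, a log2 difference of 0.57 (standard error 0.12, limma adjusted p = 0.0457), and the G1 cyclin gene *Ccnd1* fell, with 5001, 4047 and 4459 in controls and 2356, 2543 and 3286 in mutants, a log2 difference of -0.73 (standard error 0.14, limma adjusted p = 0.0396).

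The fall in these genes was not of the same depth in the 3 mutants. Relative to the control mean, the median mitosis gene was -2.19, -1.59 and -1.24 in mutants 1 to 3 on the log2 scale, and -0.43, 0.25 and 0.16 in controls 1 to 3. The corresponding values for DNA replication were -1.71, -1.19 and -0.88 and -0.19, 0.14 and 0.056. Control 1 was thus the lowest control and mutant 3 the highest mutant, and the groups stayed apart. Without mutant 1, 72 mitosis and 49 replication genes were called, and without control 1 there were 44 and 8. Without control 2, without control 3 or with the *Xist* covariate none of either list was called (limma), and without mutant 2 there were 0 mitosis genes and 1 replication gene. The medians under those 3 fits were -1.55, -1.60 and -1.69 for mitosis and -1.15, -1.20 and -1.25 for replication. On all 6 lungs edgeR called 80 mitosis and 48 replication genes and DESeq2 87 and 66, while limma without the trend called 0 of either list, and 87 and 69 had an unadjusted p under 0.05 in limma as reported.

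Promoters of these genes were set out because many members moved together. The stretches below are the 150 bases before the annotated start in GRCm38.p6 (RefSeq), read 5′ to 3′ on the strand of the gene, and the capitals mark matches to TTTGAA, the core of the cell cycle homology region, to CCAAT, to TTCNNNGAA, a STAT-type site, to TATAAA, or to the NF-kB motif, on either strand.
Plk1, chr7:122159285-122159434, plus strand: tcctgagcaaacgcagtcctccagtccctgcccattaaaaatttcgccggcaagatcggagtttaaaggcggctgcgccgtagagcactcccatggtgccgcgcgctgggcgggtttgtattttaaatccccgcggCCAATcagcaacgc
Ckap2l, chr2:129297213-129297362, minus strand: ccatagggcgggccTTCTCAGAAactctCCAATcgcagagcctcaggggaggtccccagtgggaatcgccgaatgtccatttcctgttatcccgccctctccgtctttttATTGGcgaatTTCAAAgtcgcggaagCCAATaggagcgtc
Ncapd2, chr6:125191587-125191736, minus strand: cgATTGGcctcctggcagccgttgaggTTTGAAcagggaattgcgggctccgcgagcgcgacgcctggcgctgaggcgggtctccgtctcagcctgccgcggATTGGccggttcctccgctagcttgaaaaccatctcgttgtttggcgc
Mcm7, chr5:138171884-138172033, minus strand: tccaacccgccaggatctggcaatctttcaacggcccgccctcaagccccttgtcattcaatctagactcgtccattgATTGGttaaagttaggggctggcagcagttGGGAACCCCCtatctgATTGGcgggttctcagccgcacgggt
Plk1 has a CCAAT match 14 bases before the start. Ckap2l has 1 match to TTTGAA, read as TTCAAA and starting 30 bases before the start, with CCAAT matches on both strands, and one STAT-type match. Ncapd2 has TTTGAA at 123 bases before the start, and Mcm7 has CCAAT matches read as ATTGG, with one NF-kB match overlapping none of them. For comparison, the same stretch is given for 2 genes with large rises and for the neutrophil gene S100a8.
Saa3, chr7:46715677-46715826, minus strand: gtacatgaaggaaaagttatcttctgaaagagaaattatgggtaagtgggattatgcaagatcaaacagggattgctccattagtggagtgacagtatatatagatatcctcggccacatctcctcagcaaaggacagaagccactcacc
Pigr, chr1:130826534-130826683, plus strand: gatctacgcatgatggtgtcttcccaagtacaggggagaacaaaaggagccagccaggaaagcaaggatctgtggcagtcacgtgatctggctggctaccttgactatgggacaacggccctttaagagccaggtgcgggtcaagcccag
S100a8, chr3:90668921-90669070, plus strand: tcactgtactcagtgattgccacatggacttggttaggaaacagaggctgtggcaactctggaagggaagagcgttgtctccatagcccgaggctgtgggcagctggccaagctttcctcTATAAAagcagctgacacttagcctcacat
S100a8 has TATAAA 30 bases before the start. Saa3 and Pigr held none of these 5 motifs in this window.

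Among tested genes with an entry in the RefSeq promoter table (13585 of 17448), TTTGAA was held by 12.8% of the 300-base promoters and CCAAT by 38.2%. Among the 281 genes that fell and had an entry the shares were 32.7% and 54.1%, and among the 211 that rose they were 15.2% and 36%. The mitosis list, with 76 entries, had 63.2% and 67.1%, and the DNA replication list, with 54, had 13% and 59.3%. Outside both lists, the 177 genes that fell and had an entry held TTTGAA in 22%. The STAT-type motif was held by 7.11% of all tested promoters, 7.11% of those of genes that rose and 28.6% of the 21 acute phase entries. TATAAA was held by 8.54% of all and 14.7% of those that rose, and the NF-kB motif by 5.18% and 6.16%. Over all 32851 promoters of the table TTTGAA was in 17.9% and CCAAT in 37.4%. These shares are descriptions and were not tested.

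Genes of mucosal defence and of the acute phase were among the rises. Of the 31 mucosal defence genes tested 8 rose and none fell, with a median of 1.27, and of the 25 acute phase genes 11 rose and none fell, with a median of 1.74. Some genes stand in more than one list. Among the mucosal genes, *Pigr*, the epithelial receptor that carries IgA and IgM to the lumen, rose by 4.13 and was called under every leave-one-out fit. *Bpifb1*, a secreted airway protein, had 33.7, 97.7 and 118 in controls and 1645, 646 and 514 in mutants, a log2 difference of 3.47 (standard error 0.55, limma adjusted p = 0.0312). Mutant 1 was the highest lung and control 1 the lowest. *Lcn2*, lipocalin 2, which binds bacterial siderophores, had 1638, 1031 and 1037 in controls and 17109, 3036 and 10614 in mutants, a log2 difference of 2.77 (standard error 0.56, limma adjusted p = 0.0411). *Ltf*, lactoferrin, had 387, 452 and 684 in controls and 2093, 1706 and 955 in mutants. For *Ltf* mutant 3 was lowest of the mutants and still above control 3. The membrane mucins *Muc1* and *Muc4* rose by 0.82 and 1.32, *Retnla*, a secreted product of alternatively activated macrophages and airway cells, by 2.20, and *Sprr1a*, a cornified envelope precursor, by 2.89.

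Beside *Saa3* and *Orm1*, the acute phase members that rose included transport proteins and protease inhibitors. *Hp*, haptoglobin, had 3632, 3324 and 3076 in controls and 14048, 6857 and 13834 in mutants, a log2 difference of 1.72 (standard error 0.26, limma adjusted p = 0.0295). *Cp*, ceruloplasmin, had 2164, 1899.6 and 2783 in controls and 7715, 5452 and 7124 in mutants, a log2 difference of 1.57 (standard error 0.18, limma adjusted p = 0.0248). *Lrg1*, a leucine-rich plasma glycoprotein, had 249, 183 and 159 in controls and 1304, 598 and 1397 in mutants. In both *Hp* and *Lrg1* mutant 2 was the lowest mutant, and still clear of the controls. *Lbp*, which hands lipopolysaccharide to its receptor, rose by 0.84, *Itih3* by 1.74 and *Serpina3h* by 2.78. The *Serpina3* genes are near-identical copies, and how reads were shared among them is not known. The median acute phase gene stood at 2.38, 1.04 and 2.46 in mutants 1 to 3 relative to the control mean. Without mutant 1 there were 8 acute phase and 3 mucosal calls, without mutant 2 there were 6 and 2, and without control 1 there were 3 and 3. Without control 2 or control 3 no acute phase gene was called (limma) and *Pigr* was the mucosal call.

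Complement contributed 3 called genes of 25, all higher, with a list median of 0.42. *Cfb*, factor B of the alternative pathway, had 345, 331 and 304 in controls and 2149, 1611 and 1439 in mutants, a log2 difference of 2.38 (standard error 0.16, limma adjusted p = 0.00379), and the controls lay close together. *C1qa*, a macrophage product, and *Cd55*, which protects cells from complement, rose by 0.59 and 0.60. Among 34 genes of the NF-kB and STAT3 responses 1 was called, *Irak3*, an inhibitor of Toll-like receptor signalling, at 1.05. The list median was 1.09, and 20 of its members lay above the controls in every mutant, where 14.6% of all genes did. In that list mutant 3 was the highest lung, at 2.08 against 0.72 and 0.46. Without mutant 3 the list had 11 genes called higher and 1 lower and a median of 0.50, and on all 6 lungs edgeR called 2 and DESeq2 14 higher.

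Transcripts of neutrophils rose in the same lungs. Of 33 neutrophil genes 15 rose and none fell, with a median of 1.43, and 23 lay above the controls in every mutant. *S100a8*, a subunit of calprotectin, had 904, 546 and 849.5 in controls and 1818, 1812 and 2923 in mutants, a log2 difference of 1.51 (standard error 0.25, limma adjusted p = 0.0319). *Csf3r*, the receptor for granulocyte colony-stimulating factor, had 796, 607 and 675 in controls and 1259, 1297 and 1607 in mutants, a log2 difference of 1.00 (standard error 0.14, limma adjusted p = 0.0289). *Cxcr2*, the chemokine receptor that brings neutrophils into tissue, had 187, 112 and 169 in controls and 336, 406 and 604 in mutants, a log2 difference of 1.51 (standard error 0.27, limma adjusted p = 0.0328). Mutant 3 was the highest lung for all 3 of these genes. The granule and surface genes *Ngp*, *Mmp8* and *Clec4d* rose by 1.24, 1.64 and 1.77. The summed level of the defining markers *S100a8*, *S100a9*, *Retnlg*, *Elane* and *Mpo* was 2573, 1749.8 and 2694 normalized counts in controls and 4664, 5735 and 8303 in mutants, and *Elane* was at 0 in 2 controls. Leaving out mutant 1 kept the number of neutrophil calls at 15, leaving out mutant 2 gave 2, control 1 gave 1, and control 2 or control 3 gave 0 (limma). Over all tested members the median neutrophil gene stood at 1.11, 1.27 and 1.55 in mutants 1 to 3. The median mucosal defence gene stood at 1.33, 1.19 and 1.04, the opposite order. Over the called members alone the medians were 1.83, 1.33 and 1.66 for neutrophil genes and 3.28, 1.67 and 2.41 for mucosal defence genes. Those ranked the mutants in the same order, so the ranking depended on the members taken. The neutrophil list shares *Hp* with the acute phase list and 4 genes with the mucosal one, and the part of neutrophil RNA in those results was not tested.

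The other immune lists held fewer calls in this fit. Of 47 chemokine and chemokine receptor genes 4 rose, *Ccl3*, *Ccl9*, *Cxcl17* and *Cxcr2*, with a list median of 0.51. *Cxcl17*, a chemokine of mucosal epithelium, had 81.1, 124 and 89.1 in controls and 874, 390.4 and 452 in mutants, a log2 difference of 2.46 (standard error 0.32, limma adjusted p = 0.0265), and *Ccl9* had 412, 442 and 483 and 968, 1192 and 1849. Among 33 macrophage genes 1 rose, *C1qa*, with a median of 0.44, while DESeq2 called 14 higher and 1 lower, and the limma fit without mutant 3 called 10 and 1. Of 44 interferon response genes 1 rose, *Ifitm1*, a membrane protein induced by interferon, at 583, 414 and 469 in controls and 3915, 1993 and 2119 in mutants, a log2 difference of 2.39 (standard error 0.26, limma adjusted p = 0.0248). The list median was -0.57, but control 1 alone stood high, at 0.86 against -0.40 and -0.61 in the other controls and -0.42, -0.59 and -0.59 in the mutants. Without control 1 the interferon median was -0.079. *H2-Aa*, a chain of MHC class II, fell by 1.08 on the log2 scale as the 1 called gene of 11, with 652, 574 and 682 in controls and 246, 255 and 428 in mutants, and the list median was -0.68. In that list 7 genes lay below the controls in every mutant, where 14.9% of all genes did. Without mutant 3, 6 of the list were called lower, beside 1234 of all 17448 genes. No gene was called among 25 of lymphocytes (limma, with 1 higher and 1 lower at an unadjusted p under 0.05, and 0 called by edgeR and 1 by DESeq2), and none among 17 of mast cells and eosinophils (limma, with 0 higher and 0 lower at an unadjusted p under 0.05, and 0 called by edgeR and 0 by DESeq2).

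**Figure D3:**
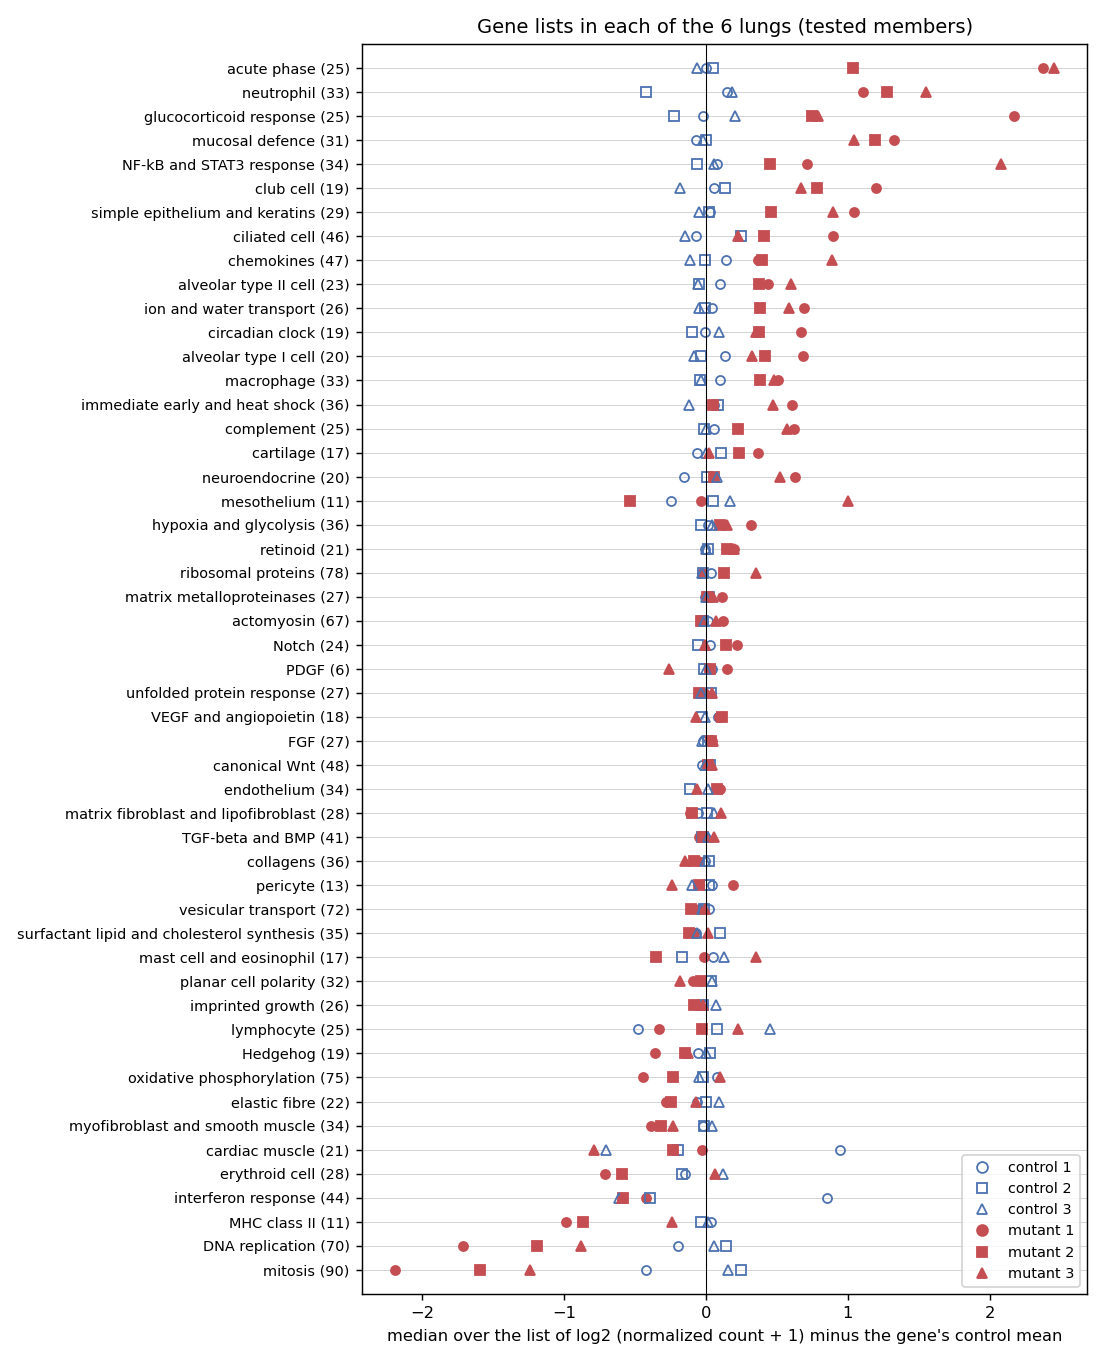
For each gene list (y axis, with its number of tested members) the median over members of log2(normalized count + 1) minus the gene's control mean (x axis), as 1 symbol per lung, open blue for controls and filled red for mutants. The mitosis and DNA replication medians lie at -0.88 or lower in every mutant, the neutrophil and acute phase medians at 1.04 or higher, and the interferon response median is high in control 1 alone at 0.86.

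Marker genes of the epithelium rose in part. Of 20 type I cell genes 5 rose, with a median of 0.46, and of 23 type II cell genes 5 rose, with a median of 0.50. None in either list was called lower in this fit. Of the defining type I markers *Hopx* was called, and *Ager*, *Aqp5* and *Pdpn* were not (limma adjusted p = 0.175, 0.587 and 0.201). The defining type II markers *Sftpb*, *Abca3*, *Lamp3* and *Sftpc* were not called either (limma adjusted p = 0.191, 0.0853, 0.202 and 0.927). The lowest type I member was at -0.95, and 1 of the 20 lay below the controls in every mutant while 13 lay above. DESeq2 called 9 type I genes higher and 1 lower, and 10 type II genes higher and 0 lower. *Sftpa1*, surfactant protein A, had 7339, 6341 and 15534 in controls and 45698, 28283 and 28709.8 in mutants, a log2 difference of 1.89 (standard error 0.34, limma adjusted p = 0.0329), with control 3 above the other controls. *Sftpd*, surfactant protein D, had 5236, 4405 and 6408 in controls and 17099, 12809 and 16907 in mutants, a log2 difference of 1.55 (standard error 0.17, limma adjusted p = 0.0248). These proteins are collectins that bind microbes. *Sftpc*, the hydrophobic surfactant protein of type II cells, had 263018, 236506 and 221452 in controls and 163615, 241151 and 311502 in mutants, and the groups overlapped. *Slc34a2*, the type II cell phosphate transporter, rose by 0.63 and *Ctsh*, a cathepsin that processes surfactant proteins, by 1.11. Among type I genes, *Hopx*, a homeodomain protein of type I cells, had 4877, 4061 and 4647 in controls and 9419, 7259 and 6351 in mutants, a log2 difference of 0.75 (standard error 0.15, limma adjusted p = 0.0436), *Col4a3*, a basement membrane collagen chain, rose by 0.62, *Krt7* by 0.62, *Lmo7* by 0.87 and *Scnn1g* by 0.73. Without mutant 2 or control 1 the type I calls fell to 0 and the type II calls to 1 and 2, and without control 2 or control 3 no gene of either list was called (limma).

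Airway and simple epithelial genes stood higher too. Of 19 club cell genes 3 rose, *Aldh1a1*, *Gsta3* and *Hp*, with a median of 0.83. *Aldh1a1*, which makes retinoic acid, had 3955, 4440.4 and 3826 in controls and 9047, 5907 and 7103 in mutants. None of 46 ciliated cell genes was called (limma, with 18 higher and 1 lower at an unadjusted p under 0.05, and 0 called by edgeR and 9 by DESeq2), with a median of 0.51 and the highest value in mutant 1. *Foxj1*, the master regulator of motile cilia, had 1251, 1543 and 1182 in controls and 3671, 1937 and 1795 in mutants, which did not overlap (adjusted p = 0.121). Of 29 keratin and simple epithelium genes 8 rose, with a median of 0.69. *Krt18*, a keratin of simple epithelia, had 1591, 1576 and 1329 in controls and 3637, 2643 and 2947 in mutants, a log2 difference of 1.03 (standard error 0.14, limma adjusted p = 0.0274). Its relative *Krt19* rose by 1.09, the tight junction gene *Cldn3* by 0.86, the adhesion gene *Epcam* by 0.51, *Anxa1*, an annexin with anti-inflammatory action, by 0.86, and *Ereg*, a ligand of the EGF receptor, by 2.50. Of 20 neuroendocrine genes 1 fell, *Ddc*, the aromatic amino acid decarboxylase, at 338, 315 and 295 in controls and 97.2, 149 and 183 in mutants. The list leaned the other way, with a median of 0.37, 16 members above 0 and 4 below. In it 5 genes lay above the controls in every mutant and 1 below, and DESeq2 called 2 higher and 1 lower.

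Of 26 ion and water transport genes 9 rose, with a median of 0.48, and none fell. All 3 subunits of the epithelial sodium channel, which clears fluid from the newborn airspace, were among them. *Scnn1a* had 6939.8, 5308 and 4924 in controls and 21955, 13953 and 10211 in mutants, a log2 difference of 1.37 (standard error 0.27, limma adjusted p = 0.0387). *Scnn1b* had 2168, 1887 and 1711 and 4358, 3112 and 3043, a log2 difference of 0.85, and *Scnn1g* had 3525, 3113 and 3663 and 6528, 5349 and 5308. Mutant 1 was the highest lung for each subunit. *Atp1b1*, the beta subunit of the sodium pump, had 5057, 4853 and 5532 in controls and 21386, 11860.4 and 10077 in mutants, a log2 difference of 1.41 (standard error 0.25, limma adjusted p = 0.0326). *Slc6a14*, an amino acid transporter, had 866, 857 and 720.2 in controls and 2489, 1898 and 3094 in mutants, a log2 difference of 1.59 (standard error 0.18, limma adjusted p = 0.0248). The water channel *Aqp4* rose by 0.98 and the sodium-glucose cotransporter *Slc5a1* by 1.93. Without mutant 1 there were 7 calls in this list, without mutant 2 or control 1 there was 1, and without control 2 or control 3 there were 0 (limma).

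**Figure D4:**
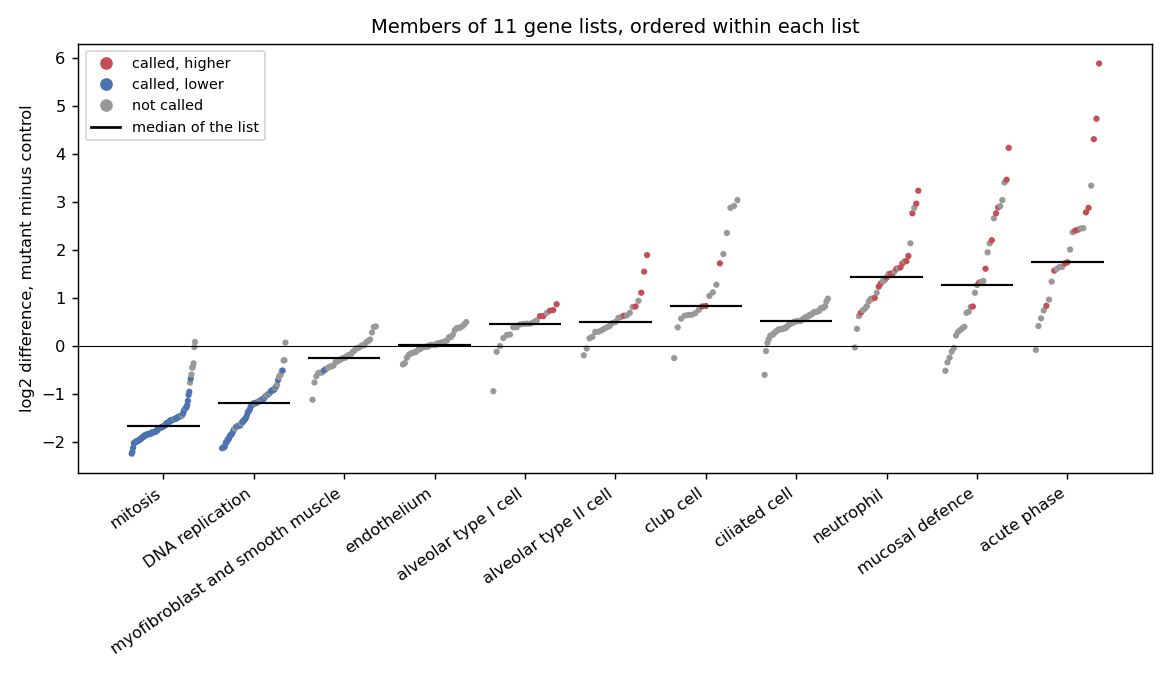
Log2 difference of mutants from controls (y axis) for each tested member of 11 gene lists (x axis), ordered within each list, in red where called higher, blue where called lower and grey where not called, with a bar at the list median. In mitosis 79 of 90 and in DNA replication 49 of 70 members are called, all of them lower, and in the neutrophil list 15 of 33 are called, all higher.

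In the mesenchyme the fit on all 6 lungs called few genes. Of 34 myofibroblast and smooth muscle genes 2 fell, with a median of -0.25, and 15 lay below the controls in every mutant. In that list edgeR called 3 lower and DESeq2 10, and limma called 13 lower and 1 higher without mutant 3. Over all genes DESeq2 called 920 lower, and limma without mutant 3 called 1234 lower and 1074 higher. *Myh11*, the smooth muscle myosin heavy chain, had 4993, 5306 and 5682 in controls and 3889, 3657 and 3869.7 in mutants, a log2 difference of -0.48 (standard error 0.09, limma adjusted p = 0.0339). *Smtn*, smoothelin, had 3802, 3531 and 4069 in controls and 2533, 2513 and 2961 in mutants, a log2 difference of -0.51 (standard error 0.10, limma adjusted p = 0.0418). *Acta2*, smooth muscle actin, had 12869, 15848 and 17738 in controls and 6590.2, 8325 and 13472 in mutants, so that mutant 3 lay above control 1 (adjusted p = 0.136). Of 28 matrix fibroblast genes 2 fell, *Dpt*, dermatopontin, at 6936, 7708 and 8336 in controls and 3627, 2950.3 and 4475 in mutants, and *Figf*, which encodes vascular endothelial growth factor D, at 2597, 3158 and 3751 and 1009.8, 989 and 1683, with log2 differences of -1.07 (standard error 0.16) and -1.40 (standard error 0.22). The list median was 0.0017. Mutant 3 was the highest mutant for both.

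Matrix genes went in both directions. Of 36 collagen genes 3 fell and 1, *Col4a3*, rose, with a median of -0.02 and 16 members above 0. DESeq2 called 10 collagen genes lower and 3 higher. *Col1a1*, the main chain of type I collagen, had 30992, 35557 and 31906 in controls and 19969, 19777 and 23385 in mutants, a log2 difference of -0.64 (standard error 0.13, limma adjusted p = 0.0394). *Col6a3* had 15545, 16339 and 13174 in controls and 9678, 9573 and 9485 in mutants, a log2 difference of -0.64 (standard error 0.11, limma adjusted p = 0.0326), and *Col16a1* fell by 0.46. Of 22 elastic fibre genes 1 fell, *Fbn2*, fibrillin 2, at 2125, 2951 and 2438 in controls and 1069, 1479 and 1593 in mutants, a log2 difference of -0.87 (standard error 0.18, limma adjusted p = 0.0429), and the median was -0.24. *Eln*, tropoelastin, moved the other way, with 54366, 54916 and 67288 in controls and 196873, 113003 and 88638 in mutants, a log2 difference of 1.10 (standard error 0.29, limma adjusted p = 0.0828). Its groups did not overlap, mutant 1 was highest, and it was not called. The summed elastic fibre list had 201257, 206584 and 227747 normalized counts in controls and 306180.0, 230605 and 220885 in mutants, with mutants 1 and 2 above every control. That sum includes *Eln* at the counts above and does not describe the other members. Of the 22 genes 16 lay below 0 and 6 above. The median member stood at -0.28, -0.25 and -0.069 in mutants 1 to 3 relative to the control mean. Of 13 pericyte genes 1 rose, *Abcc9*, a subunit of a potassium channel of mural cells, at 0.67. The pericyte list did not rise as a whole, with a median of -0.033, 9 members below 0 and 4 above. Of 11 mesothelium genes 1 rose, *Krt19*, and of 27 matrix metalloproteinase genes 1, the neutrophil collagenase *Mmp8*. No endothelial gene of 34 was called (limma, with 4 higher and 0 lower at an unadjusted p under 0.05, and 0 called by edgeR and 1 by DESeq2), with a median of 0.02, and *Pecam1*, a junction protein of endothelium, had 15379, 13558 and 14629 in controls and 16696, 14493 and 13138 in mutants, which overlapped. No cartilage gene of 17 was called (limma, with 1 higher and 0 lower at an unadjusted p under 0.05, and 0 called by edgeR and 0 by DESeq2).

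The pathway that contains Vangl2 and the PDGF pathway held no called genes. The unadjusted counts in this paragraph stand beside 3921 of all 17448 genes tested (limma). Of 32 planar cell polarity genes none was called (limma, with 1 higher and 4 lower at an unadjusted p under 0.05, and 0 called by edgeR and 2 by DESeq2), with a median of -0.092. The abundant members *Ptk7*, a receptor-like co-factor of Vangl2, *Fat4*, a giant cadherin, *Ryk*, a Wnt receptor, and *Daam1*, a formin downstream of Dishevelled, differed by -0.19, -0.14, -0.065 and 0.19. Of 6 PDGF genes none was called (limma, with 1 higher and 0 lower at an unadjusted p under 0.05, and 0 called by edgeR and 1 by DESeq2). *Pdgfra*, the receptor of myofibroblast progenitors, had 2375, 3061 and 3482 in controls and 4988, 2985 and 2239 in mutants, with mutant 1 above and mutant 3 below all controls. Its ligand gene *Pdgfa* differed by -0.46 (standard error 0.25) and *Pdgfrb* by -0.016 (standard error 0.10). Of 67 actomyosin genes 1 fell, *Diap3*, a formin with a role in cell division, with 491, 612 and 586 in controls and 213, 214 and 307 in mutants, and the median was 0.064. None of 72 vesicular transport genes was called (limma, with 0 higher and 10 lower at an unadjusted p under 0.05, and 0 called by edgeR and 2 by DESeq2), with a median of -0.036, and *Cltc*, the clathrin heavy chain, differed by -0.20 (standard error 0.093).

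Developmental signalling gave single calls, where 2.09% of all genes tested fell and 1.50% rose. These few calls do not describe the pathways as wholes. The list medians were 0.026 for canonical Wnt, -0.18 for Hedgehog, 0.032 for FGF and 0.036 for VEGF and angiopoietin genes. For retinoid, imprinted growth, TGF-beta and BMP, and Notch genes they were 0.15, -0.11, -0.0095 and 0.062. In canonical Wnt signalling 2 of 48 genes fell, *Ccnd1* and *Bambi*, a decoy receptor and Wnt target that had 964, 931 and 948 in controls and 647, 608 and 729 in mutants. In Hedgehog signalling 1 of 19 fell, *Foxf2*, a mesenchymal forkhead factor, with 1888, 2009.7 and 1871 in controls and 952, 1277 and 1214 in mutants, a log2 difference of -0.75 (standard error 0.13, limma adjusted p = 0.0326). In FGF signalling 2 of 27 fell and 1 rose. *Etv4*, an ETS factor that distal epithelium expresses under FGF10, had 354, 463 and 598 in controls and 89.9, 161 and 216 in mutants, a log2 difference of -1.65 (standard error 0.33, limma adjusted p = 0.0408). *Fgf12* had 194, 181 and 182 and 73.4, 81.6 and 80.5, and *Fgfbp1*, which releases FGFs from matrix, had 354, 272 and 253 and 1167, 733 and 673. Among 18 VEGF and angiopoietin genes *Figf* was the 1 that fell, among 21 retinoid genes *Crabp1* fell and *Aldh1a1* rose, and among 26 imprinted growth genes *Cdkn1c* rose. No gene was called of 41 in TGF-beta and BMP signalling (limma, with 6 higher and 4 lower at an unadjusted p under 0.05, and 0 called by edgeR and 7 by DESeq2) and none of 24 in Notch signalling (limma, with 1 higher and 0 lower at an unadjusted p under 0.05, and 0 called by edgeR and 1 by DESeq2). The Notch-list ligand *Dlk1* had 2341, 2435 and 2157 in controls and 10942, 2854 and 2689 in mutants, with mutant 1 alone far above the rest.

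Stress and hormone response genes added a few rises, where 1.50% of all genes tested rose. Of 36 immediate early and heat shock genes 2 rose, *Fosl2* and *Klf6*. *Fosl2*, an AP-1 subunit, had 1188, 1301 and 1525 in controls and 4742, 2194 and 4743 in mutants, a log2 difference of 1.46 (standard error 0.29, limma adjusted p = 0.0388). Of 36 hypoxia and glycolysis genes 2 rose, *Adm*, adrenomedullin, at 48.4, 68.3 and 96.7 in controls and 457, 191 and 269.9 in mutants, and *Hk2*, hexokinase 2, at 1.40 on the log2 scale. Of 25 glucocorticoid response genes 2 rose, *Lcn2* and *Hsd11b1*, which regenerates active glucocorticoid, with a median of 1.36 and 16 members above the controls in every mutant. In that list mutant 1 stood at 2.17 and mutants 2 and 3 at 0.75 and 0.79. Of 19 clock genes 1 rose, *Npas2*, a partner of BMAL1, at 1.38. Of 35 surfactant lipid and cholesterol genes 1 fell, *Dhcr7*, the last enzyme of cholesterol synthesis, at 640.4, 697 and 593 in controls and 274, 354 and 404 in mutants. No gene was called among 27 of the unfolded protein response (limma, with 4 higher and 3 lower at an unadjusted p under 0.05, and 0 called by edgeR and 4 by DESeq2), 75 of oxidative phosphorylation (limma, with 0 higher and 2 lower at an unadjusted p under 0.05, and 0 called by edgeR and 0 by DESeq2) or 78 ribosomal protein genes (limma, with 12 higher and 0 lower at an unadjusted p under 0.05, and 0 called by edgeR and 3 by DESeq2).

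RNA of blood and heart cells differed between lungs. Of 28 erythroid genes 2 fell, with a median of -0.35. *Alas2*, the erythroid haem synthesis enzyme, had 4662, 2146 and 2296 in controls and 955, 1091 and 945 in mutants, a log2 difference of -1.51 (standard error 0.27, limma adjusted p = 0.0326), and *Bpgm*, which makes the red cell regulator of haemoglobin, had 2666, 1859.8 and 1945 and 802, 1100.5 and 1222. For both, control 1 was the highest lung. No gene was called of 21 of cardiac muscle (limma, with 0 higher and 2 lower at an unadjusted p under 0.05, and 0 called by edgeR and 1 by DESeq2), of which control 1 held the most, with the median member at 0.94 above the control mean. *Myh6*, atrial myosin, had 3875, 1433 and 1004 in controls and 3234, 2003 and 859 in mutants. The myoglobin fall stands beside these values, and the part of heart tissue in it was not tested. Of the 6 sex-linked genes tested none was called (limma, with 0 higher and 0 lower at an unadjusted p under 0.05, and 0 called by edgeR and 0 by DESeq2).

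The same genes were then set beside the P5 lungs titled Sox9Cre; Vangl2f/f and the P2 lungs titled Sox9Cre; Ror2f/f, each with its own controls and its own table. Mitosis genes had medians of -1.68 here, -0.59 at P5 and -1.74 in the Ror2 lungs, and replication genes had -1.20, -0.40 and -0.98. At P5 98 of 17410 genes were called in either direction (0.563%), and in the Ror2 lungs 0 of 17541 (0.00%, limma). No mitosis or replication gene was called in either of these comparisons, while 46 of 90 and 19 of 70 had an unadjusted p under 0.05 at P5 and 83 and 59 in the Ror2 lungs. The number of all genes at that unadjusted level is not given for either comparison, so these counts have no background beside them. Neutrophil genes had medians of 1.43, 1.91 and -0.0081. Acute phase genes had 1.74, 1.58 and 0.75, and mucosal defence genes 1.27, 1.61 and -0.32. Of these 3 lists 13 of 33, 7 of 25 and 3 of 31 genes were called at P5.

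**Figure D5:**
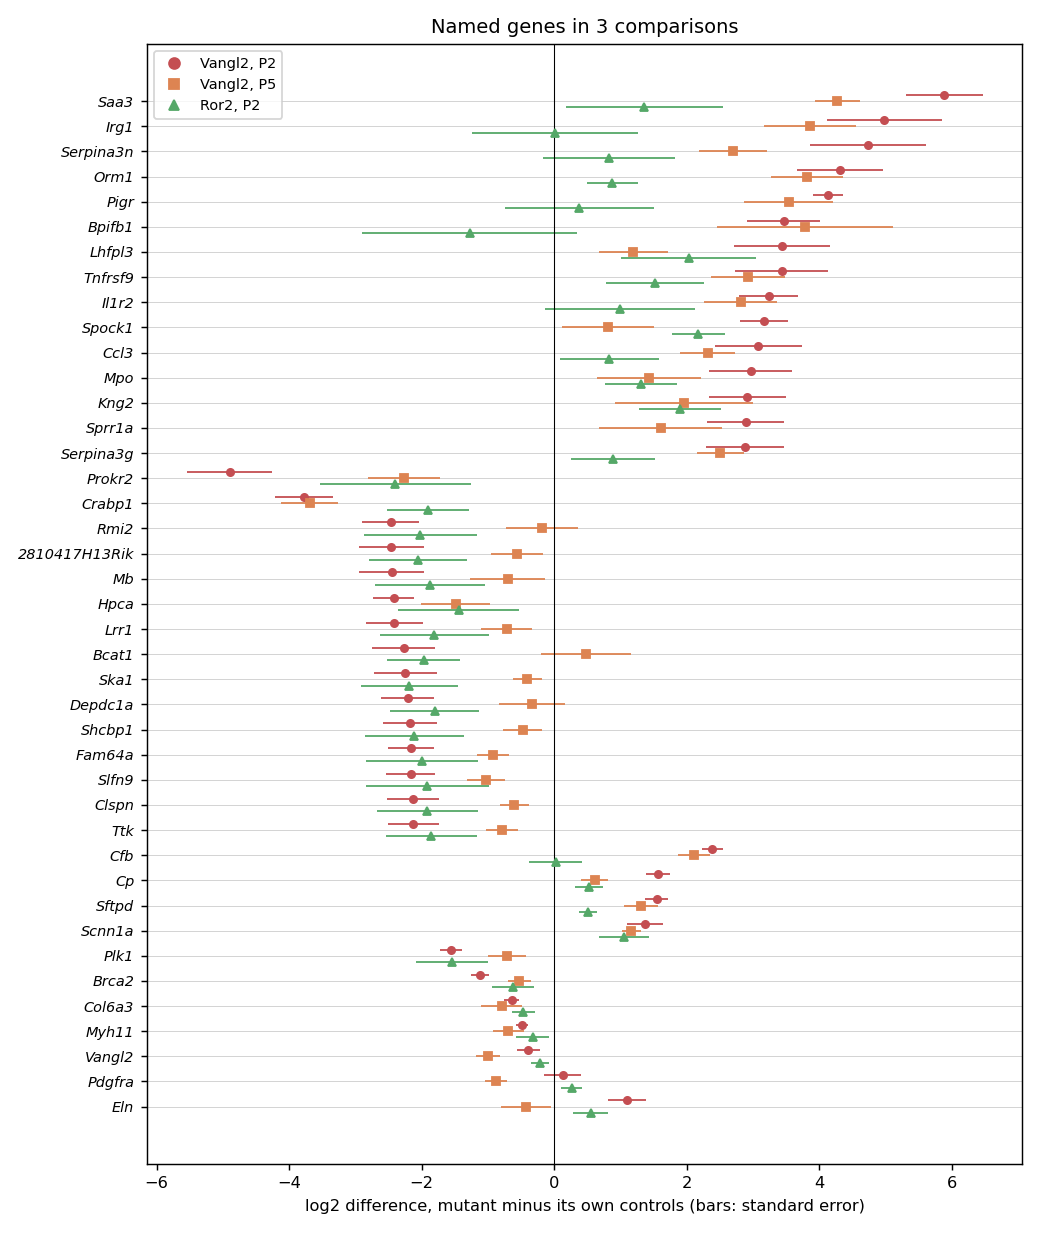
Log2 difference of mutants from their own controls (x axis, bars are standard errors) for single named genes (y axis) in the P2 *Vangl2* lungs (red circles), the P5 *Vangl2* lungs (orange squares) and the P2 *Ror2* lungs (green triangles). *Saa3* lies at 5.89, 4.28 and 1.36 in that order, *Plk1* at -1.56, -0.71 and -1.54, and *Crabp1* below 0 in all 3.

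For single genes, *Saa3* differed by 5.89 here, 4.28 (standard error 0.34) at P5 and 1.36 (standard error 1.18) in the Ror2 lungs, and *Cfb* by 2.38, 2.11 (standard error 0.24) and 0.021 (standard error 0.40). *Bpifb1* differed by 3.47, 3.79 (standard error 1.33) and -1.28 (standard error 1.62), and *Ltf* by 1.61, 2.22 (standard error 0.42) and -0.97 (standard error 0.58). *Plk1* differed by -1.56, -0.71 (standard error 0.29) and -1.54 (standard error 0.55), and *Crabp1* by -3.78, -3.69 (standard error 0.43) and -1.90 (standard error 0.62). *Eln* differed by 1.10, -0.43 (standard error 0.37) and 0.55 (standard error 0.27), and *Fosl2* by 1.46, 0.21 (standard error 0.26) and 0.41 (standard error 0.39). The difference between comparisons was tested gene by gene over 12 lungs. Of 17064 genes tested for the P5 difference minus the P2 difference 0 were called (0.00%, limma), with 1441 at an unadjusted p under 0.05, or 8.44%. Of 17133 tested for the *Vangl2* difference minus the *Ror2* difference 0 were called (0.00%, limma), with 788 at an unadjusted p under 0.05, or 4.60%. Among the lists, the P5 minus P2 difference had an unadjusted p under 0.05 for 67 of 90 mitosis genes and 47 of 70 replication genes, and for 4 neutrophil, 1 acute phase and 2 mucosal defence genes. The *Vangl2* minus *Ror2* difference had one for 0 mitosis and 0 replication genes and for 14 neutrophil, 9 acute phase and 10 mucosal defence genes. After adjustment over all genes none of these differences passed.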

How the data were processed

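Whole left lobes of mouse lung were profiled by RNA-seq, and the submitters' processing notes name DESeq2 and mm10; the aligner and counter are not given in the sources used here. The authors deposited a normalized count signal per gene and lung, which is the read count divided by a size factor set within each table; columns of fold changes and p-values from the authors' own comparisons were also deposited and were not used. Whole reads were recovered from 100% of values within a tolerance of 0.02. Genes that reached a normalized count of 1 in 3 or more of the 6 lungs were fitted with limma 3.58.1 in R 4.3.3 (lmFit, and eBayes with trend) on log2(normalized count + 1), which understates the change of genes with low counts, and p-values were adjusted by Benjamini-Hochberg over all 17448 genes at a threshold of 0.05. Fold changes are differences on this log2 scale. Differences between comparisons were fitted in limma over 12 lungs, each contrast against the controls of its own table. The fits were tested on simulated data. Alternatives were edgeR 4.0.16 (quasi-likelihood) and DESeq2 1.42.0 on the recovered reads, TMM scaling, pseudocounts of 0.5 and 4, no filter, a filter at 10, no trend, robust variances, the replicate number as a block, *Xist* level as a covariate, and each lung left out.

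The comparison, members and gene lists were chosen with earlier results of these data known, so the lists are described by counts and medians with no test. List members were matched by symbol, and 42 by a RefSeq synonym. The genes named are the called genes with the largest rises and falls and no overlap of the groups (at most 15 each way, with a mean normalized count of at least 20 in the higher group), in each list the called members with the lowest p (at most 8), or the members with the highest level where none was called (at most 4), the genes the study measured, and defining cell type markers. *Sftpc* was given lung by lung as such a marker. Promoters were the RefSeq table's 250 bases before to 50 bases after the first listed start (GRCm38.p6), searched on both strands. Genes without an entry in that table have no promoter value here.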

Additional observations from a re-analysis of the deposited data

How the results depend on the processing

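The number of called genes stood at 641 with edgeR, 633 with TMM scaling, 621 and 617 with pseudocounts of 0.5 and 4, 585 with no filter, 659 with a filter at 10 and 639 with robust variances, against 626 as reported, and edgeR shared 607 of these genes. It moved to 2001 with DESeq2, of which 621 were among the 626, to 1 without the trend and to 12 with *Xist* as a covariate, and it ranged from 1 to 2308 when a lung was left out. The cause of these moves was not tested, beyond the fact that leaving out a lung or adding a covariate lowers the residual degrees of freedom. Both differences between comparisons gave 0 calls under every alternative run. The correlations of same-numbered deviations were -0.010, 0.040 and 0.090, and those of differently numbered ones ranged from -0.10 to 0.062. Each deviation is from a mean of 3 lungs, so these values cannot decide whether the replicate numbers pair the lungs. A fit with the replicate number as a block called 795 genes, 532 of them among the 626. Under TMM scaling, either other pseudocount or a lung left out, 426 list medians moved by less than the spread between lungs and 42 by more, each of the 42 with a lung left out. Among the 140 single genes, sign changes were seen only in genes that were not called. With a lung left out, *Myh6* ranged from -0.43 to 0.56, *Pdgfra* from -0.18 to 0.39, *Sftpc* from -0.27 to 0.19, *Pdgfrb* from -0.072 to 0.062, *Ror2* from -0.078 to 0.062 and *Pecam1* from -0.072 to 0.10. With the *Xist* covariate *Pdgfrb* went to 0.017 and *Ror2* to 0.012. Over all settings the single genes kept direction and side of the threshold in 1616 cases, lost the call in 744 and gained it in 6, for *Acta2*, *Eln* and *Foxj1*. The lungs held 19186821 to 20850989 reads, and with 3 lungs a group an exact permutation test cannot give a p below 0.1. Whether more reads or more lungs would change the calls was not tested.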
